A study of Sus scrofa with 18 samples.

Results

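The difference between 2 tumour effects in pig tissue was examined gene by gene: the tumour effect (tumour minus normal tissue) at the site labelled scrotum, minus the tumour effect at the site labelled nose. It rests on 12 of the series' 18 libraries, namely 3 libraries in each of the groups DIK nose, WT nose, DIK scrotum and WT scrotum. All genes that passed a low-count filter were tested, which was 12895 of the 27339 genes in the count table. DIK stands for a double knock-in pig that carries elements of the Tet-on system, which switches genes on with doxycycline (Dox), and of the phiC31 integrase system. DIK founders aged 7 months and wild-type (WT) controls of the same age received Dox, and sampling followed after another 8 months. The DIK libraries come from tumours of 1 founder, and the WT libraries from the matching normal sites, so the control pigs also received Dox. Which gene was induced is not stated in these sources. The libraries of both DIK groups thus share 1 animal, and the contrast between tumours lies within it. No label says whether the 3 WT libraries of a group came from separate animals, so each p-value reflects the spread among 3 libraries, and that spread may be technical.

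Skin and the lining of nose and mouth carry a stratified squamous epithelium, whose keratinocytes start at a basal layer and in skin end as cornified cells, over glands, connective tissue and muscle. Type I interferon switches on a set of antiviral genes in most cell types, while MHC class II molecules present peptides on dendritic cells, macrophages and B cells, and on epithelium exposed to interferon gamma. A difference between 2 tumour effects can lie in the tumours, in the normal tissues, or in both, and the comparison alone does not tell these apart. For that reason each called gene was traced to its columns.

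WT nose replicate 1 was the shallowest of the 12 libraries at 418665 counts and WT nose replicate 3 the deepest at 5041470, so 3 counts were worth 0.611 to 5.76 CPM. Here CPM is a library's counts scaled by TMM to a common depth, in parts of 1e6. WT scrotum replicate 2 stood apart: its log CPM correlated at 0.81 and 0.763 with the other WT scrotum libraries, against 0.868 to 0.97 in all other within-group pairs of the series. The defining genes of cornified epidermis (31 in the table) summed to 270.2, 70110 and 206 CPM in WT scrotum replicates 1, 2 and 3, and those of skeletal muscle to 464600, 177100 and 395900 CPM. WT nose held 58590 to 104000 CPM of salivary and mucous gland genes, against 225 to 389 CPM in WT scrotum. Genes of the neutrophil list summed to 3506, 20430 and 2705 CPM in DIK nose, with replicate 2 far above the others. S100A12 alone stood at 3440, 20300 and 2640 CPM in these libraries, so the sum follows 1 gene and does not measure neutrophil content. Genes of the posterior HOX clusters, which mark trunk and hind body, summed to only 1.25 to 4.75 CPM in DIK scrotum and 5.46 to 7.54 CPM in WT scrotum, which overlaps the 4.31 to 7.64 CPM in DIK nose. The site is therefore called the scrotum label throughout. Cell content differed this much between normal tissues, and in bulk tissue fewer cells of a type and less RNA per cell cannot be told apart.

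**Figure D1:**
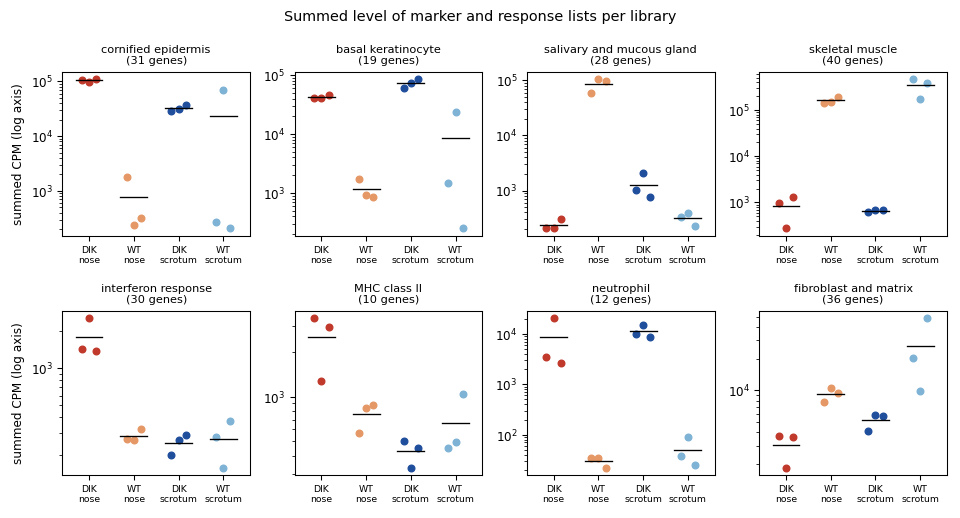
Summed CPM (log axis) of 8 lists of marker and response genes in each of the 12 libraries; points are libraries in replicate order and bars are means. WT scrotum replicate 2 (middle light blue point) held 70110 CPM of cornified epidermis genes, the other WT scrotum libraries 270.2 and 205.9 CPM.

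The tumour effect differed between the labels for 986 genes (7.65% of those tested; edgeR quasi-likelihood test, Benjamini-Hochberg adjusted p under 0.05, here referred to as called). The interaction, that is the effect at the scrotum label minus the effect at the nose label on the log2 scale, was higher for 411 genes (3.19%) and lower for 575 genes (4.46%). Its median size among called genes was 2.57 on the log2 scale, and the smallest was 1.04. The median interaction over all genes tested was -0.25. Counts of called list members below are to be read beside the shares of 3.19% and 4.46%. Each effect on its own was called for far more genes, 43.5% at the scrotum label and 42.1% at the nose label. Without WT scrotum replicate 2, the interaction was called for 1285 genes (9.64%), 558 higher (4.18%) and 727 lower (5.45%). Of the 986 genes, 801 (81.2%) were called in both fits, all with the same sign, and these made up 62.3% of the 1285. Fewer genes were called without DIK nose replicate 1 (220 higher, 253 lower), WT nose replicate 2 (204 and 229), WT nose replicate 3 (249 and 275), DIK scrotum replicate 1 (254 and 316) or DIK scrotum replicate 2 (213 and 226). Without DIK nose replicate 3 or DIK scrotum replicate 3 the lower calls numbered 356 and 382. Calls shared with the fit of all libraries kept their sign in each of these fits.

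The interaction equals the contrast between the tumours (DIK scrotum minus DIK nose) minus the contrast between the normal tissues (WT scrotum minus WT nose). The tumour contrast was called for 753 genes (5.84%) and the normal contrast for 780 genes (6.05%). For 301 of the 986 genes (30.5%) the difference arose in the tumour columns: the tumour contrast was called with the sign of the interaction and the normal contrast was not called. For 328 genes (33.3%) it arose in the normal columns alone. Both contrasts were called in opposed directions for 48 genes, and both in 1 direction for the single gene MFSD4A. In the remaining 308 genes (31.2%) neither contrast was called by itself. By size in place of a test, the tumour contrast made up at least 2/3 of the interaction in 247 genes and the normal contrast in 291, with 448 between. The tumour-column genes were mostly lower interactions (198 of 301), and the normal-column genes mostly higher ones (196 of 328). In the group without a call in either column, 224 of 308 were lower. Without WT scrotum replicate 2, the tumour class held 428 genes, the normal class 534, both contrasts 90 and neither 233. Single libraries moved the tumour class from 93 (without DIK scrotum replicate 2) to 428 and the normal class from 109 (without WT nose replicate 2) to 536 (without WT scrotum replicate 3). Of the 56 called genes named individually, 49 stayed called in each of the 12 fits that left out 1 library, and 25 also kept their column class in each.

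**Figure D2:**
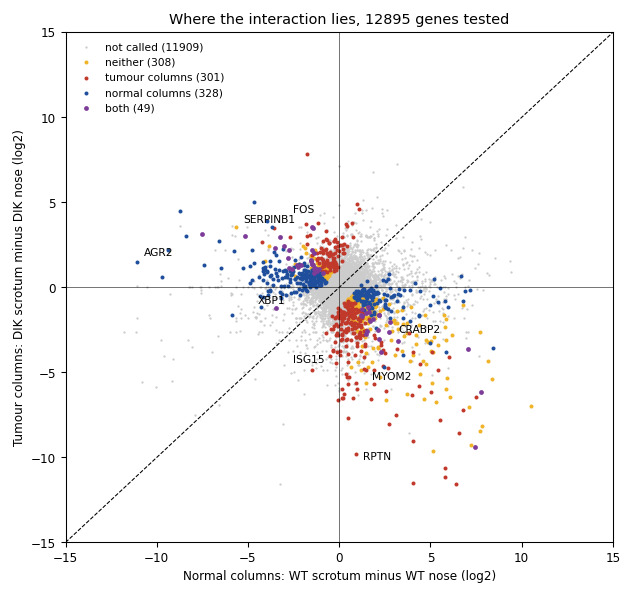
Tumour contrast (DIK scrotum minus DIK nose) against normal contrast (WT scrotum minus WT nose), log2, for the 12895 genes tested; the dashed line marks an interaction of 0 and colours give the column class. Red points (301) spread along the vertical axis and blue points (328) along the horizontal one; fitted values far from 0 include genes with few or no counts in a group.

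Genes of the cornified layer were lower in the interaction. Of 31 tested members of the cornified epidermis list, 12 were called lower and 0 higher, with a median interaction of -7.17 against -0.25 over all genes. At an unadjusted p under 0.05 the list held 23 lower and 0 higher genes, DESeq2 called 12 lower and limma-voom 5, and neither of them any higher. Of the 12, 3 were in the tumour columns, 1 in both and 8 in neither. RPTN, which encodes the cornified envelope protein repetin, was counted at 22700, 21900 and 18000 CPM in DIK nose and 177, 17.9 and 20.1 CPM in WT nose. In the DIK scrotum libraries it stood at 28.8, 13.6 and 27.5 CPM, and in WT scrotum at 6.71, 386 and 1.5 CPM. The nose tumours thus lay far above every other library, and WT scrotum replicate 2 was the highest of the rest. Its interaction was -10.75 ± 2.21 (SE; adjusted p = 0.0114), and -5.74 without WT scrotum replicate 2 (adjusted p = 0.00646).

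ASPRV1, a protease of the stratum corneum that cleaves profilaggrin, followed the same order. Its levels were 5650, 7300 and 4840 CPM in DIK nose, 48, 11 and 22 in WT nose, 23.2, 23.6 and 33.8 in DIK scrotum and 16.8, 3550 and 13 in WT scrotum. The DIK nose libraries lay above all others, and WT scrotum replicate 2 came next. The effect at the scrotum label was called lower in tumours, yet WT scrotum replicates 1 and 3 lay below every DIK scrotum library. That direction thus rested on WT scrotum replicate 2. The interaction of ASPRV1 was -13.33 ± 2.42 (adjusted p = 0.00649), and -7.08 (adjusted p = 2.1e-06) without that library. KRT1 and KRT10 are the keratin pair of the suprabasal epidermis. KRT10 stood at 20100, 14200 and 24100 CPM in DIK nose and 480.0, 71.6 and 92.7 in WT nose. At the scrotum label it stood at 1380, 183 and 1010 CPM in DIK and 47, 17000 and 37.1 in WT. In KRT10 too, 1 WT scrotum library reached the level of the nose tumours while the other WT scrotum libraries lay below every DIK library. The interactions of KRT1 (-12.03 ± 3.09, adjusted p = 0.0339) and KRT10 (-9.24 ± 2.53, adjusted p = 0.0422) were called with all libraries, with neither column contrast called. Without WT scrotum replicate 2 they were -3.20 (adjusted p = 0.151) and -2.19 (adjusted p = 0.21). The KRT1 call was also lost without DIK nose replicate 1 or 3, WT nose replicate 2 or 3, or any DIK scrotum library, and the KRT10 call without any library except WT scrotum replicates 1 and 3.

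The count of the list depended on single libraries. It was 4 lower without WT scrotum replicate 2, where the median interaction was -0.61, and 3 without WT nose replicate 2 or 3. It was 4 to 6 without DIK nose replicate 1 or 3 or any single DIK scrotum library, 8 without DIK nose replicate 2, 10 without WT nose replicate 1, and 17 and 22 without WT scrotum replicates 1 and 3. In the tumours alone, the list's median contrast was -1.62, and the summed level was 96120 to 109100 CPM in DIK nose and 29160 to 37890 CPM in DIK scrotum, with no overlap. KRT1, KRT10 and RPTN held most of that difference, so the sum does not stand for the whole list. KRT1 stood at 30500, 15600 and 31600 CPM in DIK nose and 382, 39.3 and 311 CPM in DIK scrotum. The part that the epidermal RNA of WT scrotum replicate 2 had in these interactions was not tested beyond these values.

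Among basal and wound keratinocyte genes edgeR called 2, both basal, and the difference of these lists from the cornified list was not tested. KRT5, the keratin of the basal layer, stood at 21000, 20600 and 28400 CPM in DIK nose and 40100, 51500 and 60700 CPM in DIK scrotum, against 996, 565 and 437 in WT nose and 963, 12000 and 41.1 in WT scrotum. All DIK libraries lay above all WT libraries. The interaction of KRT5 was -1.59 ± 1.76 (adjusted p = 0.626), not called, and changed sign to 1.52 without WT scrotum replicate 2. KRT6A, a keratin of activated keratinocytes, likewise was not called (-1.73 ± 1.32, adjusted p = 0.454). Of 19 tested basal keratinocyte genes 2 were called higher and 0 lower, and of 12 wound keratinocyte genes edgeR called none. Over all genes 3.19% were called higher and 4.46% lower, so lists of this size would hold few calls at those shares. The median interactions of the basal and wound lists were -1.59 and -1.54. At an unadjusted p under 0.05 the basal list held 3 higher and 5 lower genes, DESeq2 called 2 higher and 1 lower, and limma-voom 4 higher. By the same measure the wound list held 1 higher and 4 lower genes, DESeq2 called 1 in each direction, and limma-voom 1 higher. When WT scrotum replicate 3 was left out, 6 basal and 4 wound genes were called lower, and 1 wound gene without WT scrotum replicate 1. The 2 higher basal genes fell to 1 without DIK nose replicate 1 or 3, WT nose replicate 2, DIK scrotum replicate 1 or 2, or WT scrotum replicate 1. LAMA3, the alpha chain of the basement membrane protein laminin-332, was among these basal genes. It stood at 234, 240.0 and 116 CPM in DIK scrotum, 7.55, 16.3 and 9.28 in WT scrotum, 22.6, 40.9 and 24 in DIK nose and 17.3, 12.4 and 12.6 in WT nose. The DIK scrotum libraries lay above all others, and the interaction of 3.03 ± 0.68 (adjusted p = 0.0117) arose in the tumour columns. KRT4, a keratin of the oral mucosa, was at 3500, 1180 and 4980 CPM in DIK nose and 13100, 1950 and 10500 CPM in DIK scrotum. Those ranges overlapped, and its interaction was not called (3.11 ± 1.31, adjusted p = 0.156). Of 10 oral mucosa genes edgeR called none with all libraries, with 3 higher at an unadjusted p under 0.05, 1 higher by DESeq2 and 4 by limma-voom. Without DIK nose replicate 2 or WT scrotum replicate 2, edgeR called 1 oral gene higher, and without WT scrotum replicate 3, 1 lower.

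Genes of the interferon response were lower in the interaction, and here the difference lay in the tumours. Of 27 tested members, 11 were called lower and 0 higher, all 11 in the tumour columns. By unadjusted p under 0.05 it held 19 lower and 0 higher, while DESeq2 called 14 lower and limma-voom 19. The median interaction of the list was -2.22, made up of a median tumour contrast of -2.36 and a median normal contrast of 0.05. ISG15, the ubiquitin-like protein that is among the strongest interferon targets, stood at 827, 1760 and 776 CPM in DIK nose and 40.2, 113 and 102 CPM in DIK scrotum. Normal tissue held 19.2, 16.8 and 24.6 CPM at the nose label and 13.4, 6.93 and 28.1 CPM at the scrotum label. The tumours at both labels exceeded the WT libraries, and the nose tumours by more. The tumour effect was 5.78 on the log2 scale at the nose label and 2.39 at the scrotum label, an interaction of -3.39 ± 0.67 (adjusted p = 0.00543).

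OAS1, a sensor of double-stranded RNA, rose in tumours at the nose label and was not called at the scrotum label. It was at 77.4, 99.6 and 82.2 CPM in DIK nose, 13.4, 10.2 and 14.3 in WT nose, 6.71, 9.65 and 11.9 in DIK scrotum and 8.39, 5.91 and 17.8 in WT scrotum. Levels in the last 3 groups overlapped, and the interaction was -3.0 ± 0.53 (adjusted p = 0.00262). For the interferon-induced IFI44L the 2 effects were called in opposite directions, 2.29 at the nose label and -1.74 at the scrotum label. Its libraries stood at 23.3, 36.3 and 24.6 CPM in DIK nose, 17.3, 3.29 and 4.06 in WT nose, 1.96, 1.43 and 1.88 in DIK scrotum and 5.45, 2.65 and 9.78 in WT scrotum. The interaction of IFI44L was -4.03 ± 0.79 (adjusted p = 0.00533), and that of DDX58, the RNA sensor RIG-I, was -1.80 ± 0.35 (adjusted p = 0.00529). These 4 genes stayed called, in the tumour columns, in each of the 12 fits that left out 1 library. The list's count was 16 lower without WT scrotum replicate 2 and 7 without DIK scrotum replicate 1, with 8 to 11 without any other library. Summed over the list, DIK nose held 1441, 2540 and 1386 CPM, and DIK scrotum 199, 261 and 288 CPM, near the 261 to 322 and 157 to 373 CPM of WT nose and WT scrotum.

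MHC class II genes were lower in the same columns. Of 9 tested genes, 6 were called lower and 0 higher, all 6 in the tumour columns, with a median interaction of -2.14. DESeq2 called 7 lower and limma-voom 8, and 8 were lower and 0 higher at an unadjusted p under 0.05. SLA-DQB1, the beta chain of the pig's DQ molecule, stood at 1200, 396 and 914 CPM in DIK nose and 136, 89 and 130.0 CPM in DIK scrotum. Its WT libraries stood at 190.0, 223 and 255 CPM (nose) and 107, 145 and 339 CPM (scrotum label). All nose tumours lay above every other library, with DIK nose replicate 2 the lowest of them. The interaction of SLA-DQB1 was -2.65 ± 0.58 (adjusted p = 0.00982). SLA-DRA gave -2.11 ± 0.49 (adjusted p = 0.0137), a call lost without DIK nose replicate 1 or DIK scrotum replicate 2. The class II count was 1 without either of those libraries, 2 without DIK nose replicate 3, WT nose replicate 1 or 2, DIK scrotum replicate 3 or WT scrotum replicate 3, 3 without DIK scrotum replicate 1, and 4 to 7 without any other. Reads of SLA genes with near-identical copies may have been split between them.

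Some macrophage genes were also lower. Of 16 tested macrophage genes, 4 were called lower and 1 higher, all 5 in the tumour columns. C1QA, a chain of complement C1q made by tissue macrophages, stood at 40.1, 15.6 and 30.6 CPM in DIK nose, 15.4, 25.9 and 21.6 in WT nose, 6.71, 4.29 and 4.38 in DIK scrotum and 17.2, 18.7 and 34.9 in WT scrotum. The DIK scrotum libraries were the lowest of the 12, and the interaction was -2.57 ± 0.55 (adjusted p = 0.00911). APOE, a lipid carrier of macrophages, gave -3.19 ± 0.78 (adjusted p = 0.0208). Its call was lost without DIK nose replicate 3, WT nose replicate 2 or DIK scrotum replicate 2. CD68, a lysosomal glycoprotein rich in macrophages, went the other way. It stood at 75.7, 154 and 45 CPM in DIK scrotum, 11.7, 14 and 16.9 in DIK nose, 9.6, 13.9 and 8.55 in WT nose and 5.45, 6.32 and 17.1 in WT scrotum, an interaction of 2.84 ± 0.62 (adjusted p = 0.00972). C1QA and CD68 thus differed in opposite directions between the tumours. The count of lower macrophage genes was 1 without DIK nose replicate 3 or DIK scrotum replicate 2, 2 without DIK nose replicate 1, any WT nose library, DIK scrotum replicate 1 or 3, or WT scrotum replicate 3, and 4 or 5 without the others. The summed macrophage level was 454, 598 and 464 CPM in DIK nose and 271, 444 and 234 CPM in DIK scrotum. Lymphocyte and plasma cell genes summed to 457, 95.8 and 394 CPM in DIK nose and 58.1, 53.3 and 51.2 CPM in DIK scrotum. JCHAIN alone stood at 380, 34.7 and 306 CPM in DIK nose and 8.38, 2.5 and 15 CPM in DIK scrotum. Most of the difference between these sums thus lay in 1 gene, and 3 of the 26 list genes in the count table passed the filter. By edgeR 1 of these 3 was called higher, in the normal columns, and 0 lower. Without DIK nose replicate 2 it called 1 lower as well, and DESeq2 called 1 in each direction with all libraries. Whether macrophages, lymphocytes or plasma cells carried the class II and interferon differences was not tested. MS4A2, the receptor chain that marks mast cells, gave -3.15 ± 0.71 (adjusted p = 0.0123), with 4.75, 2.86 and 10.6 CPM in DIK scrotum and 29.4, 10.8 and 34.9 CPM in DIK nose.

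Class I heavy chains were not called by edgeR. SLA-1 (-1.06 ± 0.50, adjusted p = 0.196) and SLA-2 (-1.02 ± 0.50, adjusted p = 0.224), both class I heavy chains, missed the threshold, while limma-voom called both lower. Of 17 tested genes of class I and antigen processing, 3 were called lower and 2 higher. DESeq2 called 4 lower and 2 higher, limma-voom 7 lower and 2 higher, and 7 were lower and 2 higher at an unadjusted p under 0.05. ERAP1, which trims peptides for class I, was lower (-2.52 ± 0.48, adjusted p = 0.0048), with 9.95, 8.62 and 9.28 CPM in DIK nose, 5.76, 5.48 and 4.92 in WT nose, 5.31, 1.79 and 3.13 in DIK scrotum and 14.7, 11 and 9.28 in WT scrotum. Its groups separated at both labels, with the scrotum-label tumours the lowest on average. The higher members were PDIA3 and CALR, chaperones of the endoplasmic reticulum that also serve secretory cells, and they are described with the gland genes. The count of lower genes was 1 without DIK nose replicate 1 or DIK scrotum replicate 1 or 2, and 2 to 4 without any other library.

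**Figure D3:**
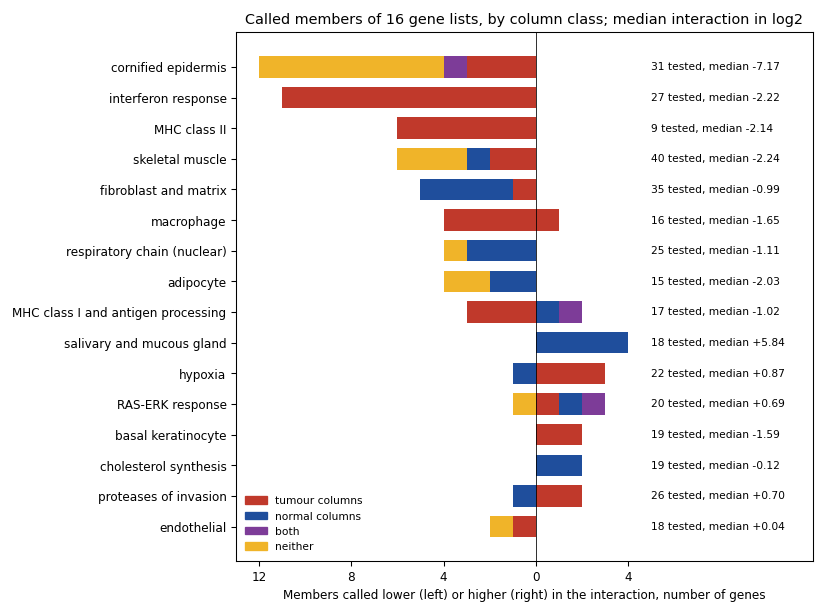
Number of list members called lower (left) or higher (right) in the interaction for 16 gene lists, coloured by column class, with the number tested and the median interaction (log2). The interferon (11) and MHC class II (6) calls all lie in the tumour columns and the 4 gland calls in the normal columns.

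A second set of genes was higher in the interaction through the tumour columns, alone or with the normal ones. SERPINB1, an inhibitor of neutrophil proteases, was counted at 670.0, 583 and 603 CPM in DIK scrotum, 12.2, 23.4 and 20.1 in WT scrotum, 54.9, 51.2 and 58.2 in DIK nose and 44.1, 61 and 45.9 in WT nose. The nose tumours and the normal nose overlapped, while the scrotum-label tumours stood above all other libraries and WT scrotum below them. The tumour effect was 5.05 ± 0.32 at the scrotum label and 0.11 ± 0.27 at the nose label, and the interaction was 4.94 ± 0.40 (adjusted p = 2.9e-06). Both column contrasts were called, 3.50 between tumours and -1.44 between normal tissues. Over the fits that left out 1 library, its interaction ranged from 4.71 to 5.13.

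CEACAM1, an adhesion molecule of epithelia and leukocytes, stood at 156, 178 and 106 CPM in DIK scrotum and 2.1, 2.65 and 2.51 CPM in WT scrotum. At the nose label it stood at 10.4, 32.6 and 13.1 CPM in DIK and 17.3, 28.5 and 23.3 CPM in WT. Only the scrotum-label groups were apart, with an interaction of 6.23 ± 0.57 (adjusted p = 6.7e-06) in both columns. CLU, the secreted chaperone clusterin, was at 1170, 1740 and 663 CPM in DIK scrotum, 120.0, 80.7 and 262 in WT scrotum, 98.1, 99.4 and 109 in DIK nose and 409, 434 and 458 in WT nose. The tumour effects of CLU went in opposite directions, 2.95 ± 0.41 at the scrotum label and -2.09 ± 0.40 at the nose label. The interaction was 5.03 ± 0.57 (adjusted p = 6.5e-05), again in both columns.

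FOS, an immediate early gene that ERK signalling and tissue handling both induce, was at 549, 354 and 206 CPM in DIK scrotum, 14.8, 58.7 and 12 in DIK nose, 11.5, 5.11 and 4.27 in WT nose and 0.839, 2.24 and 1.5 in WT scrotum. Every DIK scrotum library exceeded every other library. The interaction of FOS was 5.51 ± 0.90 (adjusted p = 0.00186) in the tumour columns. Among 18 tested immediate early and heat shock genes FOS was the single one called higher, and 1 was called lower, shares near the 3.19% and 4.46% over all genes. It was joined by 1 more higher gene without WT nose replicate 3 or WT scrotum replicate 2, and the lower count was 0 without WT nose replicate 2 or 3 and 2 without WT scrotum replicate 1 or 3. HMOX1, the heme oxygenase of oxidative stress, was at 49.5, 67.9 and 20.6 CPM in DIK scrotum and 3.64, 9.69 and 4.37 CPM in DIK nose, an interaction of 5.65 ± 1.11 (adjusted p = 0.00745). WT nose replicate 1, at 26.9 CPM on the shallowest library, overlapped the lowest DIK scrotum library for HMOX1. RGS4, a brake on G protein signalling, stood at 127, 50.4 and 35 CPM in DIK scrotum against 3.4, 9.15 and 2.73 CPM in DIK nose, and its interaction was 4.95 ± 1.01 (adjusted p = 0.00746).

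CTSL, the lysosomal protease cathepsin L, was at 59.8, 93 and 58.1 CPM in DIK scrotum and 8.74, 11 and 9.83 CPM in DIK nose, an interaction of 3.05 ± 0.64 (adjusted p = 0.0078). Of 26 proteases and related genes of invasion, 2 were called higher and 1 lower, where 3.19% and 4.46% of all genes were. The higher count was 4 without DIK nose replicate 2, 3 without DIK scrotum replicate 3 or WT scrotum replicate 3, 2 without WT nose replicate 1 or WT scrotum replicate 1 and 1 without any other library. The lower count was 2 without WT scrotum replicate 2. MMP1, the interstitial collagenase, was high in the scrotum-label tumours at 10000, 10700 and 7500 CPM. In DIK nose it stood at 217, 2820 and 164 CPM, where replicate 2 exceeded the other nose tumours. Its interaction was not called (1.02 ± 1.72, adjusted p = 0.771), and ranged from 0.26 to 3.50 as single libraries were left out, highest without DIK nose replicate 2.

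**Figure D4:**
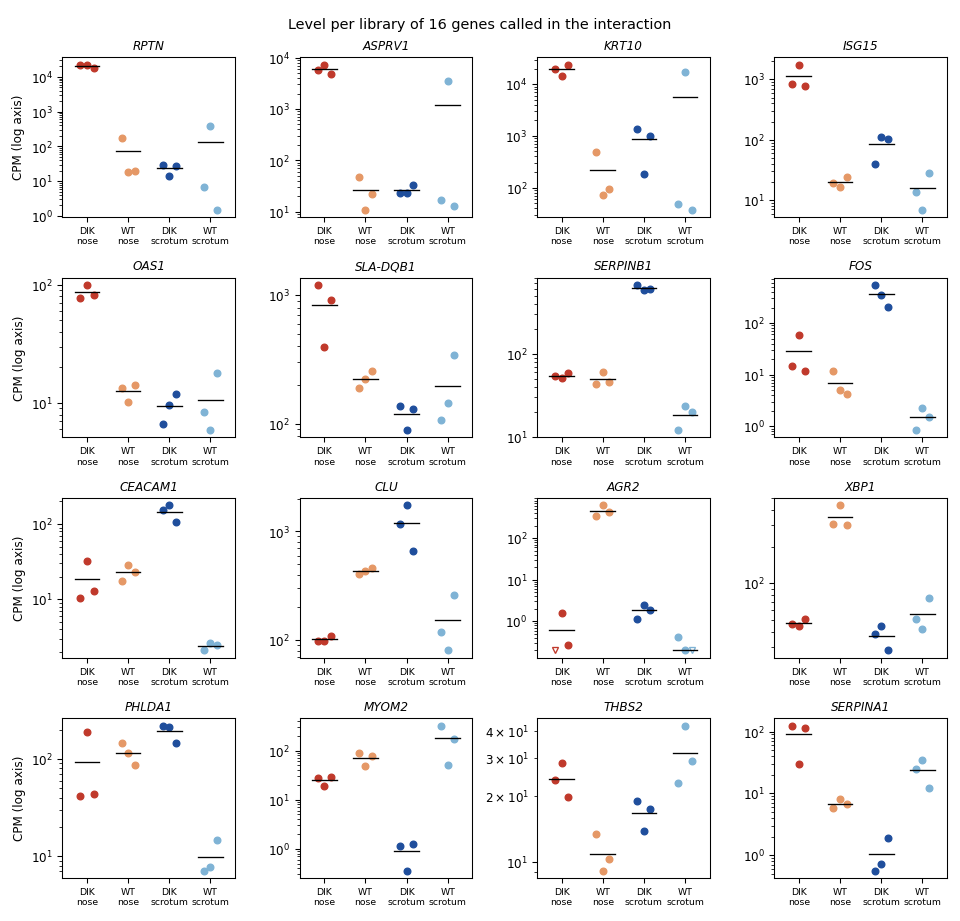
CPM (log axis) of 16 genes called in the interaction, in each of the 12 libraries; points are libraries in replicate order, bars are means, and open triangles are libraries with 0 counts drawn at the bottom. SERPINB1 stood at 583 to 670 CPM in DIK scrotum and at 12.2 to 61 CPM in the other groups.

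Of 22 tested hypoxia genes 3 were called higher, all in the tumour columns, and 1 lower, with a median interaction of 0.87. Over all genes 3.19% were called higher and 4.46% lower. SLC2A1, the glucose transporter GLUT1, stood at 2030, 2740 and 1710 CPM in DIK scrotum, 360.0, 838 and 425 in DIK nose, 88.3, 116 and 99.2 in WT nose and 22.2, 114 and 27.1 in WT scrotum. Tumours exceeded normal tissue at both labels, by 5.30 on the log2 scale at the scrotum label and 2.41 at the nose label. The interaction was 2.89 ± 0.77 (adjusted p = 0.0288), and 4.03 without WT scrotum replicate 2. That call was lost without DIK nose replicate 1 or 3, WT nose replicate 2 or 3, DIK scrotum replicate 1 or 2, or WT scrotum replicate 1. ERO1A, an oxidase of the endoplasmic reticulum that hypoxia induces, gave 3.20 ± 0.77 (adjusted p = 0.0183), lost without WT nose replicate 2 or 3 or DIK scrotum replicate 2. The number of hypoxia genes called higher was 0 without any of those 3 libraries, 5 without DIK nose replicate 2 or WT scrotum replicate 2, 1 without DIK nose replicate 1 or 3, DIK scrotum replicate 1 or WT scrotum replicate 1, and 3 without the others. The lower count was 0 without DIK nose replicate 1, WT nose replicate 2 or 3 or DIK scrotum replicate 2, and 3 without WT scrotum replicate 2. Summed hypoxia genes stood at 4314, 5709 and 3345 CPM in DIK scrotum and 993, 1753 and 1136 CPM in DIK nose. PFKL, the liver-type phosphofructokinase of glycolysis, was called higher. It stood at 148, 276 and 141 CPM in DIK scrotum and 48.8, 37.2 and 57.9 CPM in DIK nose, with 2.55 ± 0.50 (adjusted p = 0.00524). Of 21 glycolysis genes 1 was called higher and 1 lower, shares near the 3.19% and 4.46% over all genes. The higher count was 3 without WT scrotum replicate 3, and it was 2 without WT nose replicate 1, DIK scrotum replicate 3 or WT scrotum replicate 1 or 2. The lower count was 3 without WT scrotum replicate 2, 2 without DIK nose replicate 2, 1 without DIK scrotum replicate 3 or WT scrotum replicate 3, and 0 without any other library.

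Genes that respond to RAS-ERK signalling were called in 4 of 20 tested, 3 higher and 1 lower, where 3.19% and 4.46% of all genes were. The lower call was present without WT scrotum replicate 1 or 3 and absent without any other library, while the higher count stayed at 2 to 4. CCND1, the cyclin D1 of the G1 phase, was at 74.1, 74 and 39.4 CPM in DIK scrotum and 20.6, 43 and 26.8 CPM in WT scrotum. At the nose label CCND1 was at 30.8, 24 and 32.5 CPM in DIK and 69.1, 114 and 54.3 CPM in WT. It was thus higher in tumour than in normal tissue at the scrotum label (1.05 ± 0.32) and lower at the nose label (-1.45 ± 0.33), although the libraries at the scrotum label overlapped. The interaction of CCND1 was 2.50 ± 0.46 (adjusted p = 0.00346). PHLDA1, an ERK-induced gene, stood at 220.0, 214 and 146 CPM in DIK scrotum, 42, 191 and 43.4 in DIK nose, 144, 114 and 87.4 in WT nose and 7.13, 7.74 and 14.8 in WT scrotum. WT scrotum was the low group, and the interaction of 4.59 ± 0.70 (adjusted p = 0.000819) arose in the normal columns. HBEGF, a ligand of the EGF receptor, was at 879, 1240 and 785 CPM in DIK scrotum and at most 423 CPM in DIK nose, highest in replicate 2. Its interaction was not called (1.07 ± 0.71, adjusted p = 0.381), and was 2.03 without DIK nose replicate 2. Of 8 EGF receptor ligands edgeR called none, with 1 lower at an unadjusted p under 0.05, none by DESeq2 and 1 in each direction by limma-voom.

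Some gland genes were called higher in the normal columns. Of 18 tested salivary and mucous gland genes, 4 were called higher and 0 lower, all 4 in the normal columns. DESeq2 called 9 higher and limma-voom 10, and 8 were higher and 0 lower at an unadjusted p under 0.05. The list's median interaction was 5.84, or 5.02 with genes at 0 counts in a group set to 3 counts. AGR2, a disulfide isomerase of mucus-secreting cells, stood at 338, 617 and 418 CPM in WT nose. The other groups were near the floor, with 0, 1.62 and 0.273 CPM in DIK nose, 1.12, 2.5 and 1.88 in DIK scrotum and 0.42, 0.204 and 0 in WT scrotum. WT scrotum held 2 counts of AGR2 and WT nose 3825, a ratio of 2720 with an exact 95% counting interval of 752 to 22400. WFDC2, a secreted protease inhibitor of glands and airways, had 0 counts in DIK nose and 1156 in WT nose, at least 558-fold more against a floor of 3 counts over the group. Over DIK scrotum it had 6 counts and over WT scrotum 3. SLC12A2, the chloride transporter of secretory cells, was at 242, 352 and 265 CPM in WT nose and at 14.5 to 34.7 CPM in the other groups. The interaction of SLC12A2 was 4.48 ± 0.66 (adjusted p = 0.00057). SAL1, salivary lipocalin, stood at 51100, 88500 and 84200 CPM in WT nose and 118, 142 and 31.1 CPM in WT scrotum. Its interaction missed the threshold (5.56 ± 2.38, adjusted p = 0.163) with 73 counts over DIK nose and 3 over DIK scrotum.

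Single genes outside that list, named after their values were seen, were called higher as well. XBP1, the transcription factor of secretory cells, stood at 307, 438 and 299 CPM in WT nose. In the other groups it was at 46.1, 44.7 and 50.5 CPM (DIK nose), 38.6, 44.7 and 28.1 (DIK scrotum) and 51.2, 42 and 76.2 (WT scrotum). The normal nose was the high group, and the interaction was 2.29 ± 0.50 (adjusted p = 0.00946). The chaperone PDIA3 was at 395, 503 and 375 CPM in WT nose, 89.1, 126 and 98.8 in DIK nose, 183, 258 and 237 in DIK scrotum and 34, 59.5 and 93.3 in WT scrotum. Its interaction of 3.88 ± 0.46 (adjusted p = 7.8e-05) was called in both columns with all libraries, and in both columns in 4 of the 12 fits that left out 1. For CALR, calreticulin, the interaction was 2.40 ± 0.51 (adjusted p = 0.00837), with 360.0, 420.0 and 280.0 CPM in WT scrotum and at least 1130 CPM in each library of the other groups. SDF2L1 (6.39 ± 0.79, adjusted p = 9.7e-05), of the endoplasmic reticulum, and NANS (5.87 ± 0.76, adjusted p = 0.000214), the sialic acid synthase, had opposite effects at the 2 labels. NANS stood at 42.2, 56.6 and 32.3 CPM in WT nose, 4.86, 10.5 and 3.28 in DIK nose, 33.3, 34 and 26.9 in DIK scrotum and 1.26, 3.67 and 5.77 in WT scrotum. ST6GALNAC1, a sialyltransferase of mucins, gave 5.29 ± 1.21 (adjusted p = 0.0167) and the potassium channel subunit KCNE3 gave 7.58 ± 1.10 (adjusted p = 0.000819). KCNE3 was at 154, 82.1 and 70.5 CPM in WT nose and at most 6.88 CPM in any library of the other groups. INSIG1, a regulator of cholesterol synthesis, stood at 3.78, 4.89 and 5.52 CPM in WT scrotum against 38.4, 36.9 and 32.5 CPM in WT nose, with 3.48 ± 0.46 (adjusted p = 0.000226). Of 19 cholesterol synthesis genes 2 were called higher, both in the normal columns, and 0 lower, where 3.19% and 4.46% of all genes were. Their median interaction was -0.12, with 2 genes in each direction at an unadjusted p under 0.05. The higher count was 1 without WT nose replicate 2 and 3 without WT scrotum replicate 2. Without WT scrotum replicate 2 or 3, 1 gene was called lower. Gland content differed between the normal tissues as given above, and its part in these interactions was not tested.

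MFSD4A, a member of a family of membrane transporters, was the 1 gene whose contrasts were called in the same direction. It stood at 86.4, 119 and 117 CPM in WT nose, 17.2, 23.7 and 18 in DIK nose, 8.1, 10.4 and 6.25 in DIK scrotum and 10.1, 7.34 and 12 in WT scrotum. The level was lower at the scrotum label in both genotypes, with a contrast of -1.23 between tumours and -3.47 between normal tissues. The unequal contrasts left an interaction of 2.24 ± 0.46 (adjusted p = 0.00745), and the class was kept in 6 of the 12 fits that left out 1 library.

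Some skeletal muscle, respiratory chain and matrix genes were called lower in the interaction. Of 40 tested skeletal muscle genes 6 were called lower and 0 higher, where 4.46% and 3.19% of all genes were. By column class 2 of the 6 were in the tumour columns, 1 in the normal columns and 3 in neither. The list's median interaction was -2.24, or -1.92 with genes at 0 counts in a group set to 3 counts. At an unadjusted p under 0.05 there were 16 lower and 0 higher, DESeq2 called 8 lower and limma-voom 11. Muscle RNA was far lower in the tumours at both labels, with summed levels of 991, 272 and 1280 CPM in DIK nose and 611, 696 and 678 CPM in DIK scrotum. Every WT nose and WT scrotum library held at least 143900 CPM. MYOM2, a protein of the sarcomere's M band, stood at 324, 51.4 and 174 CPM in WT scrotum, 90.2, 47.5 and 76.5 in WT nose, 28.2, 19.4 and 29.5 in DIK nose and 1.12, 0.358 and 1.25 in DIK scrotum. The DIK scrotum libraries were the lowest by far. Its interaction of -6.19 ± 0.81 (adjusted p = 0.000226) was in the tumour columns, and in both columns without WT scrotum replicate 2. ACTA1, skeletal alpha-actin, gave -5.69 ± 1.55 (adjusted p = 0.0363). DIK nose replicate 2 held 4.58 CPM of ACTA1 against 683 and 887 CPM in the other nose tumours. The ACTA1 call was lost without DIK nose replicate 1 or 3, any WT nose library, DIK scrotum replicate 1 or 2, or WT scrotum replicate 1. The muscle count was 11 without WT scrotum replicate 2, 10 without DIK nose replicate 2, 4 and 5 without DIK scrotum replicate 3 and WT scrotum replicate 3, and 1 or 2 without any other library. Of 20 smooth muscle genes 1 was called lower and 0 higher, near the share over all genes, with a median interaction of -0.42 (-0.15 with genes at 0 counts in a group set to 3 counts). DESeq2 called 1 smooth muscle gene lower and limma-voom 2, and 4 were lower and 1 higher at an unadjusted p under 0.05. Without WT scrotum replicate 2 edgeR called 3 of them lower, without DIK nose replicate 2 it called 2 lower, without WT scrotum replicate 3 it called 1 lower and 2 higher, and without any other single library none. Reads of near-identical actins may have been split between genes.

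With 4.46% of all genes called lower, 4 of 25 nuclear respiratory chain genes were, 3 of them in the normal columns, with a median of -1.11. This count rose to 19 without WT scrotum replicate 2 and was 0 to 2 without any other single library. Unadjusted, 16 were lower and 0 higher at p under 0.05, DESeq2 called 6 lower and limma-voom 21. Summed levels were 15020, 5469 and 11470 CPM in WT scrotum, 5282, 5177 and 6450 in WT nose, 2518, 2627 and 2108 in DIK nose and 2209, 2289 and 2276 in DIK scrotum. The tumours of both labels overlapped, and WT scrotum replicates 1 and 3, which also held the most muscle RNA, were the highest.

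Among 35 fibroblast and matrix genes 5 were called lower and 0 higher, where 4.46% and 3.19% of all genes were. The normal columns held 4 of the 5. The unadjusted p was under 0.05 for 12 lower and 0 higher, and DESeq2 called 8 lower and limma-voom 9. THBS2, a matricellular thrombospondin, stood at 23.1, 42.2 and 29.1 CPM in WT scrotum, 13.4, 9.13 and 10.3 in WT nose, 23.8, 28.3 and 19.9 in DIK nose and 19, 13.9 and 17.5 in DIK scrotum. It was higher in tumour than in normal tissue at the nose label (1.20 ± 0.27) and lower at the scrotum label (-0.91 ± 0.25), an interaction of -2.11 ± 0.37 (adjusted p = 0.00262). ASPN, asporin, gave -3.61 ± 0.66 (adjusted p = 0.00343), with 12.9, 9.42 and 7.92 CPM in DIK nose, 1.92, 1.46 and 2.14 in WT nose, 4.19, 3.22 and 7.5 in DIK scrotum and 7.55, 7.13 and 17.6 in WT scrotum. WT nose was the low group of ASPN. MMP2, the gelatinase of stromal cells, fell in both tumours but further at the scrotum label, with 352, 161 and 787 CPM in WT scrotum, 19.8, 18.9 and 16.3 in DIK scrotum, 109, 141 and 118 in WT nose and 51, 22.3 and 52.4 in DIK nose. The interaction of MMP2 was -3.0 ± 0.63 (adjusted p = 0.00758). COL1A2, a chain of collagen I, was not called (-0.51 ± 0.74, adjusted p = 0.727). Its levels in WT scrotum were 5670, 2020 and 13700 CPM, the widest spread of its 4 groups. The matrix count was 9 without WT scrotum replicate 2, 7 without DIK nose replicate 2, 4 or 5 without WT scrotum replicate 3 or 1, 3 without DIK scrotum replicate 3 and 2 without any other library. CIDEA, a lipid droplet protein of fat and sebaceous cells, was lower too (-3.0 ± 0.59, adjusted p = 0.00569). It stood at 62.4, 40.7 and 74.3 CPM in DIK nose, 0, 3.65 and 3.63 in WT nose, 37.4, 15 and 41.9 in DIK scrotum and 13, 16.5 and 11.3 in WT scrotum, and WT nose was the low group. The tumour effect was called higher at both labels, although DIK scrotum replicate 2 lay among the WT scrotum libraries. Among 15 adipocyte genes 4 were called lower and 0 higher, beside the same 4.46% and 3.19% over all genes. At an unadjusted p under 0.05, 7 were lower and 1 higher, with 5 lower by DESeq2 and 6 by limma-voom. The adipocyte count was 2 without DIK nose replicate 1 or 3, WT nose replicate 2, or DIK scrotum replicate 1 or 2.

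Effects in opposite directions were called at both labels for 148 of the 986 genes. In 75 of them the tumour was higher than normal tissue at the scrotum label and lower at the nose label, and in 73 the reverse held. More often a single label carried the call. Among higher interactions, 167 genes were higher in tumours at the scrotum label with no call at the nose label, and 132 were lower at the nose label with no call at the scrotum label. Among lower interactions, 238 were higher in nose tumours with no call at the scrotum label, and 175 were lower in scrotum-label tumours with no call at the nose label. RHPN2 had effects in opposite directions, with 6.15, 6.44 and 4.38 CPM in DIK scrotum, 1.68, 0.815 and 0.251 in WT scrotum, 1.7, 5.12 and 2.18 in DIK nose and 17.3, 12.8 and 16.9 in WT nose. WT nose was the high group and WT scrotum the low one, and the interaction was 5.12 ± 0.98 (adjusted p = 0.00484).

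**Figure D5:**
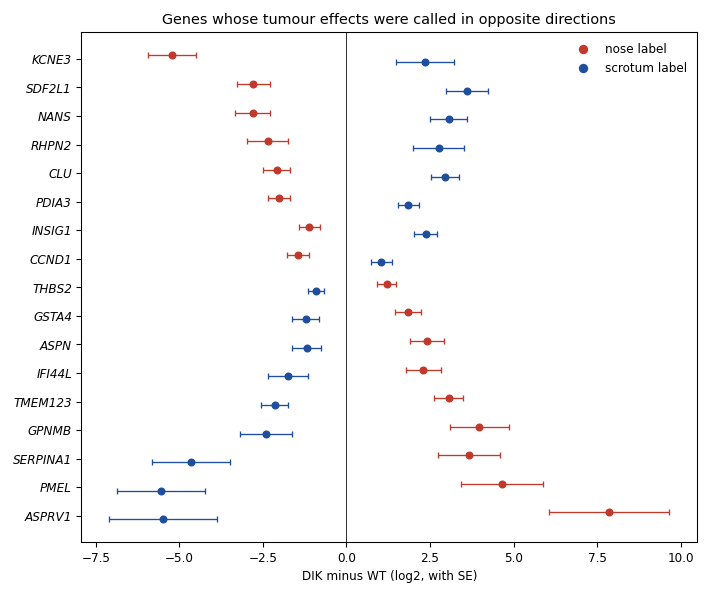
Tumour effect (DIK minus WT, log2, with SE) at the nose label (red) and at the scrotum label (blue) for 17 named genes called in opposite directions. NANS stood at -2.81 and 3.06, TMEM123 at 3.06 and -2.15. The lower effect of ASPRV1 at the scrotum label rested on WT scrotum replicate 2 (3550 CPM).

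The reverse pattern included pigment and surface genes. PMEL, the fibril protein of melanosomes, stood at 70.2, 10.5 and 121 CPM in DIK nose, 1.92, 1.83 and 3.42 in WT nose, 0.559, 1.43 and 1.88 in DIK scrotum and 62.1, 104 and 1.5 in WT scrotum. WT scrotum replicate 3 and DIK nose replicate 2 stood below the others of their groups. The interaction of PMEL was -10.19 ± 1.80 (adjusted p = 0.00558). TYRP1, another melanosome protein, had 60 counts in DIK nose and 41 in WT scrotum and 0 in the other groups, at least 13.9-fold more in DIK nose than in DIK scrotum. The WT scrotum libraries stood at 6.29, 5.3 and 0 CPM of TYRP1, so replicate 3 held none. Of 5 tested melanocyte genes these 2 were called lower, where 4.46% of all genes were. Both were in the tumour columns with all libraries, a class kept for PMEL and TYRP1 in 5 and 2 of the 12 fits that left out 1 library. The missing call in the normal columns does not show equal levels there. WT scrotum replicates 1 and 2 held 62.1 and 104 CPM of PMEL, against at most 3.42 CPM in WT nose. SERPINA1, alpha-1-antitrypsin, was at 125, 29.9 and 115 CPM in DIK nose, 5.76, 8.03 and 6.62 in WT nose, 0.559, 0.715 and 1.88 in DIK scrotum and 24.3, 34 and 12 in WT scrotum, an interaction of -8.32 ± 1.48 (adjusted p = 0.00542). GPNMB, a glycoprotein of melanosomes and phagocytes, gave -6.37 ± 1.18 (adjusted p = 0.0063), with 205, 47.4 and 166 CPM in DIK nose, 17.3, 8.4 and 5.56 in WT nose, 21.2, 6.08 and 20.6 in DIK scrotum and 17.2, 198 and 35.6 in WT scrotum. WT scrotum replicate 1 lay among the DIK scrotum libraries for GPNMB. TMEM123, a mucin-like membrane protein, stood at 201, 74.9 and 161 CPM in DIK nose, 21.1, 15.3 and 17.1 in WT nose, 24.9, 9.65 and 18.1 in DIK scrotum and 51.6, 119 and 63.5 in WT scrotum. The groups crossed without overlap between tumour and normal at either label, with an interaction of -5.21 ± 0.60 (adjusted p = 6.5e-05) in both columns.

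Genes of lipid and retinoid handling were called in both directions. DBI, the acyl-CoA binding protein, stood at 876, 303 and 733 CPM in DIK nose, 26.9, 33.6 and 34.2 in WT nose, 92.8, 81.9 and 131 in DIK scrotum and 94, 440.0 and 88.5 in WT scrotum, with -5.35 ± 0.77 (adjusted p = 0.000531). CRABP2, which carries retinoic acid to its receptor, was at 247, 307 and 296 CPM in DIK nose and 83.3, 59.7 and 59.4 CPM in DIK scrotum. WT levels of CRABP2 were 0, 3.29 and 1.71 CPM at the nose label and 5.04, 27.9 and 11 CPM at the scrotum label. Tumours were higher at both labels, more so at the nose, with an interaction of -4.87 ± 0.75 (adjusted p = 0.000819). CRABP2 was one of 4 called among 13 retinoid and xenobiotic genes, 2 higher and 2 lower. ALDH1A3, which makes retinoic acid, was higher instead (4.32 ± 0.84, adjusted p = 0.0063) in the normal columns, with 46.1, 26.7 and 37.4 CPM in WT nose and 2.94, 3.87 and 2.76 CPM in WT scrotum. GSTA4, a glutathione transferase for lipid peroxidation products, was lower (-3.07 ± 0.56, adjusted p = 0.00336), with 16, 8.62 and 12.3 CPM in DIK nose and 1.92, 3.29 and 3.85 CPM in WT nose.

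In several lists few or no members were called. At the 7.65% called over all genes, lists of 7 to 34 members would hold few calls, so these counts do not set the lists apart. Of 34 proliferation genes, 1 was called lower and 0 higher, with a median interaction of -0.96, -0.68 with genes at 0 counts in a group set to 3 counts, and -0.06 without WT scrotum replicate 2. At an unadjusted p under 0.05 there were 10 lower and 2 higher proliferation genes, DESeq2 called 1 lower and limma-voom 2 higher. Without WT scrotum replicate 3 edgeR called 4 lower, without WT scrotum replicate 2 it called 1 higher, without WT scrotum replicate 1 it called 1 lower, and without any other single library it called none. Of 8 neutrophil genes edgeR called none with all libraries, with 2 lower at an unadjusted p under 0.05, none by DESeq2, 1 in each direction by limma-voom, and 1 lower by edgeR without WT scrotum replicate 2. Of 7 inflammatory cytokine genes it called none, with 1 higher at an unadjusted p under 0.05 and 1 higher by each of DESeq2 and limma-voom. Without DIK nose replicate 2, the library with the highest S100A12 level of its group, 2 of the cytokine genes were called higher. Of 18 regulators of the epithelial-mesenchymal transition none was called by edgeR or DESeq2 with all libraries, with 1 in each direction at an unadjusted p under 0.05 and 3 higher and 1 lower by limma-voom. Without WT scrotum replicate 2 edgeR called 2 of them higher and 1 lower, and without WT scrotum replicate 3 it called 1 higher. Of 7 posterior HOX genes none was called by edgeR, DESeq2 or limma-voom, and none had an unadjusted p under 0.05. Among them 5 had 0 counts over at least 1 of the 4 groups. So close to the floor a call was hardly possible, and its absence does not show equal effects.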

How the data were processed

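Poly(A) RNA of 18 libraries was sequenced, per the labels' protocols. The authors deposited 1 table of raw read counts per gene, made with fastp, HISAT2 2.1.0 and HTSeq 0.11.2, per the submitters' processing notes. The genome build, annotation and strand setting are not stated in these sources, so reads of a gene and of an antisense partner cannot be told apart, and no sequence or coordinate is printed. From the deposited counts, genes were kept by edgeR's default filter (minimum count 10, total 15), scaled by TMM and fitted with edgeR 4.0.16 (robust quasi-likelihood, 6 group means over all 18 libraries, R 4.3.3); p-values were adjusted by Benjamini-Hochberg over the 12895 genes tested. The other 6 libraries, labelled mouth, enter the filter, the scaling and the shared estimate of spread, but none of the contrasts. With the 4 groups alone, 12069 genes were tested and 702 called. Standard errors were taken as |log2 difference| / sqrt(F). Fold bounds use a floor of 3 counts over a group, and intervals on ratios of counts cover counting error only. The script was tested on simulated data.

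The 194 genes open to naming were the largest interactions in each direction and column class, the leading called and uncalled members of each of 45 lists, and genes with opposite effects, at 10 CPM or more in 1 group and more than 3 counts in each (list members without that minimum). The 65 described were picked from these after their values were seen. The members and lists were chosen with earlier results of these data known. Alternatives were other scalings and filters, DESeq2 1.42.0, limma 3.58.1 (voom with quality weights), a fit of the 4 groups alone, the replicate block, a stricter threshold and leaving out each library. Total counts are given with the results, and the common biological coefficient of variation was 36.1%.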

Additional observations from a re-analysis of the deposited data

Results flagged for a closer look

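The 411 higher and 575 lower interactions are all differences between the tumour effects at 2 labels, found by the edgeR test of the difference itself. Among them, 75 genes with effects in opposite directions were higher in tumours at the scrotum label and 73 were lower there. For the named genes, the interactions (log2) on the higher side were 12.56 for AGR2, 7.58 for KCNE3, 6.39 for SDF2L1, 5.87 for NANS, 5.12 for RHPN2, 5.03 for CLU, 3.88 for PDIA3, 3.48 for INSIG1 and 2.50 for CCND1. On the lower side they were -2.11 for THBS2, -3.07 for GSTA4, -3.61 for ASPN, -4.03 for IFI44L, -5.21 for TMEM123, -6.37 for GPNMB, -8.32 for SERPINA1, -10.19 for PMEL, -13.33 for ASPRV1 and -14.03 for TYRP1. The values for AGR2 and TYRP1 are fitted against groups with 0 to 14 counts and depend on the prior count. For ASPRV1 the lower effect at the scrotum label rested on WT scrotum replicate 2. The other WT scrotum libraries lay below every DIK scrotum library. No test for single outlying libraries was run, since every group has 3.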

How the results depend on the processing

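Calls shared with the reported fit kept their sign under every alternative. The counts of higher and lower interactions were 433 and 532 with median-of-ratios scaling, 343 and 406 without a filter, and 572 and 721 with DESeq2. With library size alone 30 genes had both contrasts called, and with DESeq2 512 were in the normal columns and 106 in both. With limma-voom there were 952 higher and 962 lower, with 814 in the tumour columns, 609 in the normal columns and 199 in both. With only the 4 groups fitted there were 293 lower, 195 in the tumour columns, 29 in both and 187 in neither, and the share of higher calls was 58.3% against 41.7%. At an adjusted p under 0.01 there were 146 higher and 131 lower, with 74 in the tumour columns, 98 in the normal columns, 8 in both and 97 in neither. By size, 448 genes had neither contrast at 2/3 of the interaction.

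Leaving out 1 library gave 204 to 558 higher, 226 to 831 lower, 93 to 428 in the tumour columns, 109 to 536 in the normal columns, 11 to 125 in both and 120 to 292 in neither. Without both WT scrotum replicate 2 and WT nose replicate 1, an alternative chosen after seeing the data, there were 539 higher and 600 lower. The causes were not tested, beyond the change in libraries or threshold that each alternative makes.

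Of single genes, KRT10 and SLC2A1 lost their call with library size alone. KRT1, KRT10 and ACTA1 lost it without a filter, with the 4 groups alone and in limma-voom, APOE with the 4 groups alone and PMEL in limma-voom. SAL1 was called in DESeq2 and limma-voom, and SLA-1 and SLA-2 in limma-voom. Uncalled interactions that changed sign were KRT5 (1.98) and KRT6A (0.40) in limma-voom, KRT5 (-2.18 to 1.52) and KRT6A (-3.02 to 0.81) as single libraries were left out, with 1.52 and 0.81 without WT scrotum replicate 2, and COL1A2 (-0.96 to 0.38, the highest without WT scrotum replicate 3).

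With the replicate number as a block there were 384 higher and 450 lower interactions, and KRT1 and KRT10 were not called. The numbers were not shown to pair the samples: same-numbered deviations correlated at -0.048 to 0.187, with 2 of 18 above 0.1. At a floor worth 0.611 to 5.76 CPM, low genes such as TYRP1 and WFDC2 can be read only as bounds.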
